A study of Homo sapiens with 24 samples.

Results

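The class I phosphoinositide 3-kinase (PI3K) genes were followed through all 24 RNA sequencing libraries, 9 genes of the 60563 named in the count table. They were selected by gene symbol, and comprise 4 genes that encode catalytic subunits (PIK3CA, PIK3CB, PIK3CD and PIK3CG) and 5 that encode regulatory subunits (PIK3R1, PIK3R2, PIK3R3, PIK3R5 and PIK3R6). The group was chosen from the values of PIK3CG in control and isoform libraries, which were known from an earlier analysis of these data, so the values of PIK3CG are given as a description without a test. H1299, a p53-null line derived from non-small cell lung cancer, carried a single added p53 isoform in each of 5 clonal lines, Δ133p53α in Δ133p53α1, Δ133p53α2 and Δ133p53α8, and Δ133p53β in Δ133p53β5 and Δ133p53β10. Both isoforms lack the start of the p53 protein and differ from each other at its end. H1299 cells with the vector served as control, and all groups share the H1299 background. There were 4 libraries of control, 4 each of Δ133p53α1, Δ133p53α2, Δ133p53α8 and Δ133p53β10, 3 of Δ133p53β5, and 1 Δ133p53β library whose label and column name give different clones, which was left out of the fit and is shown apart. Each line is 1 clone, so a difference between a line and control cannot be told apart from a difference between clones, and whether the libraries of a line came from separate cultures is not given, so the p-values measure the spread between libraries only.

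Class I PI3Ks phosphorylate the membrane lipid PIP2 to PIP3, which recruits AKT and other proteins to the plasma membrane. The catalytic subunits p110α, p110β and p110δ (from PIK3CA, PIK3CB and PIK3CD) pair with the p85 family of regulatory subunits, made from PIK3R1, PIK3R2 and PIK3R3. They act below receptor tyrosine kinases, among other receptors. The catalytic subunit p110γ (from PIK3CG) pairs with p101 (from PIK3R5) or p84 (from PIK3R6), is activated by the βγ subunits of G proteins, and, like p110δ, is best known from leukocytes.

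Libraries held from 21531599 to 25381731 counted reads, and levels are given as CPM, the reads of a gene scaled to the size of its library, with library sizes set by TMM. The libraries fell into 2 sets of 12 that the lines do not explain: the rank correlation, across genes, of a library's deviation from the mean with gene length was between 0.182 and 0.298 in the positive set and between -0.266 and -0.112 in the negative set. The positive set held 3 of 4 libraries of control, Δ133p53α2 and Δ133p53α8, and 1 library each of Δ133p53α1, Δ133p53β5 and Δ133p53β10. Of the lung epithelial markers, KRT8 and KRT18 were abundant (at least 11255 reads in every library), whereas EPCAM and CDH1 had at most 5 reads. The mesenchymal marker VIM was read at least 41352 times in every library. The 5 epithelial markers summed to between 871 and 1648 CPM in control and between 1860 and 7722 CPM in isoform libraries, without overlap. This sum was nearly all KRT8 (mean 566 CPM in control and 2140 in isoform libraries) and KRT18 (665 and 1683). KRT19 had at most 4 reads, and mean EPCAM was 0.0959 and 0.0242 CPM. The sums of the 3 mesenchymal markers overlapped, at 2755 to 4979 CPM in control and 1784 to 5183 CPM in isoform libraries. Nearly all of this sum was VIM (mean 3678 CPM in control and 3045 in isoform libraries). The means of CDH2 (21.9 and 30.5 CPM) and FN1 (11.2 and 5.71) went opposite ways. The share of all tested genes without overlap was not counted, and the part of these markers in the results below was not tested. Leukocyte markers summed to between 18.91 and 22.998 CPM over 15 genes in control and to between 8.09 and 21.6 CPM in isoform libraries, and the defining leukocyte genes PTPRC, CD53, CD48 and CD3E had 0 reads in all 24 libraries. Other genes of the list were read in every library, among them ITGAM (44 to 282 reads), CORO1A (28 to 177), CD37 (64 to 142) and CYBB (5 to 40), named here after their values were seen. Mean ITGAM was 9.63 CPM in control and 3.42 CPM in isoform libraries as a group mean, so its mean, like that of PIK3CG, was lower in the isoform libraries. The other genes of the list that exceeded 3 reads in any library went both ways. Means in control and isoform libraries were 4.66 and 3.23 CPM for CORO1A, 0.939 and 0.335 for LAPTM5, and 4.68 and 4.44 for CD37. They were 0.701 and 0.777 CPM for CYBB, 0.192 and 0.606 for ITGB2, and 0.0590 and 0.157 for CD14. The part of these genes in the results was not tested.

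Starting regions of 3 of the genes are shown: PIK3CG, whose reads were nearly absent from the isoform lines, PIK3CB, the catalytic gene with the highest level per length, and PIK3R3, the regulatory gene that differed most steadily from control. Each spans 250 bases before to 50 bases after the annotated start (RefSeq, GRCh38.p14, 5′ to 3′ on the gene's strand), with CpG dinucleotides in capitals. Such regions numbered 1 for PIK3CG, 2 for PIK3CB and 6 for PIK3R3, and 1 per gene is shown. The start used for PIK3CG lies 201 bases after the gene start given below, so most of its region lies within the gene.
PIK3CG (chr7:106865229-106865528, plus strand): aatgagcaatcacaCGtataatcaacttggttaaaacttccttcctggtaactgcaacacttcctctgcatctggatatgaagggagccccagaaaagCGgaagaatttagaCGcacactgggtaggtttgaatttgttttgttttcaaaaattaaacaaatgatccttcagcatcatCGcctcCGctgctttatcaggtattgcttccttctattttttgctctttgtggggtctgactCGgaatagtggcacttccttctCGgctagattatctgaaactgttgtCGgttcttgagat
PIK3CB (chr3:138834879-138835178, minus strand): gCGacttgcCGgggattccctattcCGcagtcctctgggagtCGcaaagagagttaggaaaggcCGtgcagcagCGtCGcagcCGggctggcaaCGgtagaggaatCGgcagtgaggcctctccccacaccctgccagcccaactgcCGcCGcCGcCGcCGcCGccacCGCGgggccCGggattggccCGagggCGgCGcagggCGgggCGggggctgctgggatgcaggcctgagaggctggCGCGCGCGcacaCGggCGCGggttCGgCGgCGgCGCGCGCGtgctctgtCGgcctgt
PIK3R3 (chr1:46132987-46133286, minus strand): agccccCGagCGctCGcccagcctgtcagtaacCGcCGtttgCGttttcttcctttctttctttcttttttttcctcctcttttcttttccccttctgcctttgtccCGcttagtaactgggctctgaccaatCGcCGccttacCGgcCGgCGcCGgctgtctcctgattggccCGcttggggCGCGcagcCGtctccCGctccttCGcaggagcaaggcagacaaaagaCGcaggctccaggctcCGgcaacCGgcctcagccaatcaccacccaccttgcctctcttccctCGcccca
The letters CG, read on 1 strand since they are the same on the other, occurred 8 times in the PIK3CG region, which had a GC content of 41.7%. They occurred 39 times in the PIK3CB region (GC content 74.0%) and 23 times in the PIK3R3 region (61.0%). Of 35116 such regions, 41.6% held as few as PIK3CG, and the median was 14. Starting regions of 8 of the 9 genes were found, and the other 7 all held more CpG than that of PIK3CG, from 22 in PIK3CA to 42 in PIK3R1. That of PIK3CD lies on a start 21842 bases from the gene start given below. Methylation was not measured.

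PIK3CG (ENSG00000105851, GRCh38 chromosome 7 from 106865278 to 106908980, plus strand) was read in every control library and almost nowhere else. Control libraries held 183, 329, 251 and 284 PIK3CG reads, or 7.01, 14.0, 9.38 and 11.99 CPM (mean 10.6 ± 3.04, SD, n = 4). The 20 isoform libraries held 10 PIK3CG reads in all, and 14 of them held 0. No library of Δ133p53α1 or Δ133p53α8 held a PIK3CG read. In Δ133p53α2, replicates 2 and 4 held 1 PIK3CG read each. Replicates 1 and 2 of Δ133p53β5 held 2 PIK3CG reads each, as did replicate 4 of Δ133p53β10 and the library of unclear clone. The highest isoform library therefore reached 0.103 CPM, far below the lowest control library. Against a floor of 3 reads in the line's smallest library, the control mean of PIK3CG was at least 63.3-fold higher than Δ133p53α1, 61.9-fold higher than Δ133p53α2 and 76.2-fold higher than Δ133p53α8. The same bound was 77.1-fold for Δ133p53β5 and 67.2-fold for Δ133p53β10. These bounds cover counting error only. Control stood first in the order of the lines, and the 5 isoform lines that followed overlapped each other, at or under the floor, so no fold between the isoforms is given. In control, the lowest PIK3CG value was that of replicate 1, the only control library of the negative set. In bulk RNA, fewer cells with a transcript and less transcript per cell cannot be told apart.

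**Figure D1:**
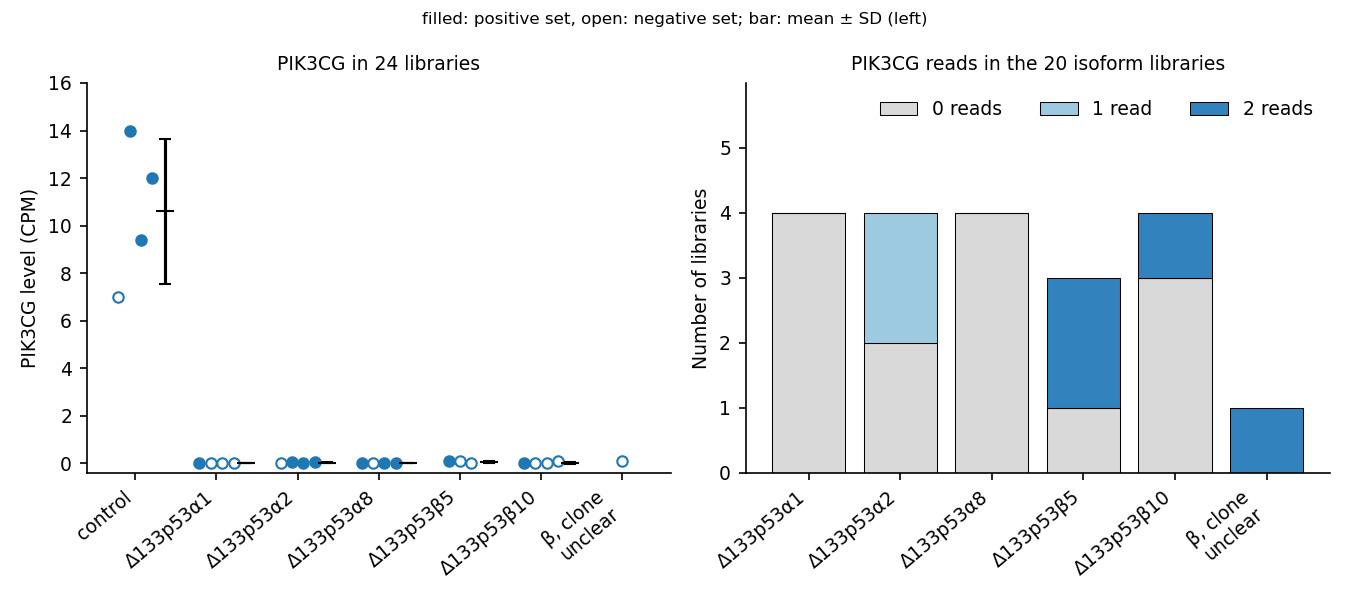
Left, PIK3CG level in CPM in each of the 24 libraries by line, with filled points for the positive set, open points for the negative set and a bar for the mean ± SD; right, the number of isoform libraries with 0, 1 or 2 PIK3CG reads. The 4 control libraries lie between 7.01 and 14.0 CPM, and all 20 isoform libraries lie at or below 0.103 CPM.

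The regulatory partners of p110γ had at most 1 read in any library. PIK3R5 (ENSG00000141506, chromosome 17) had 0 reads in all 24 libraries, which allows up to 3 reads in each. PIK3R6 (ENSG00000276231, chromosome 17) had 1 read in Δ133p53α2 replicate 3 and 1 in the library of unclear clone, and 0 in the other libraries. In control, PIK3CG was therefore present without detectable reads of either partner at this depth. PIK3R2 (ENSG00000105647, chromosome 19), which encodes p85β, had between 0 and 6 reads in a library. That value is uncertain, because 76.4% of its exon bases lie, on the same strand, in exons of an annotated readthrough gene (ENSG00000268173), and how reads shared by genes were handled is not given. These 3 genes did not pass the filter on low counts and were not tested.

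To compare members with each other, levels were divided by the length of all exons of the gene. In control, PIK3CG took up 10.1% ± 1.63 of the summed CPM per kb of the 4 catalytic genes (SD, n = 4). PIK3CB, which encodes p110β, took up 54.7% ± 3.88, PIK3CD 26.3% ± 3.55 and PIK3CA 8.79% ± 2.86. The share of PIK3CG was thus of the size of that of PIK3CA in control. In the isoform lines the mean share of PIK3CG was at most 0.0761%, in Δ133p53β5. PIK3CB remained the catalytic gene with the largest mean share in 5 of 5 isoform lines. Its mean ranged from 54.7% ± 7.41 in Δ133p53α1 (SD, n = 4) to 64.8% ± 3.85 in Δ133p53β5 (SD, n = 3). In Δ133p53β10 replicate 3, PIK3CD exceeded PIK3CB, at 3.64 against 2.65 CPM per kb. It did so too in Δ133p53α2 replicate 1, at 2.76 against 2.53. Both libraries are of the negative set, and the part of the sets in the shares was not tested. With the longest transcript in place of all exons, the control shares were 48.2% for PIK3CB, 32.6% for PIK3CD, 11.4% for PIK3CA and 7.84% for PIK3CG, so the order of PIK3CA and PIK3CG depended on the length used. Among the regulatory genes, PIK3R3 took up 69.9% ± 7.43 of the summed CPM per kb in control and PIK3R1 29.9% ± 7.40 (SD, n = 4). In isoform lines, PIK3R3 took up between 57.7% (Δ133p53α8) and 73.6% (Δ133p53α1) as a mean. With the longest transcript, PIK3R1 had the larger mean share in 3 of 5 isoform lines, at 50.9% against 48.8% for PIK3R3 in Δ133p53α2, 55.6% against 44.1% in Δ133p53α8 and 54.6% against 45.3% in Δ133p53β5.

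**Figure D2:**
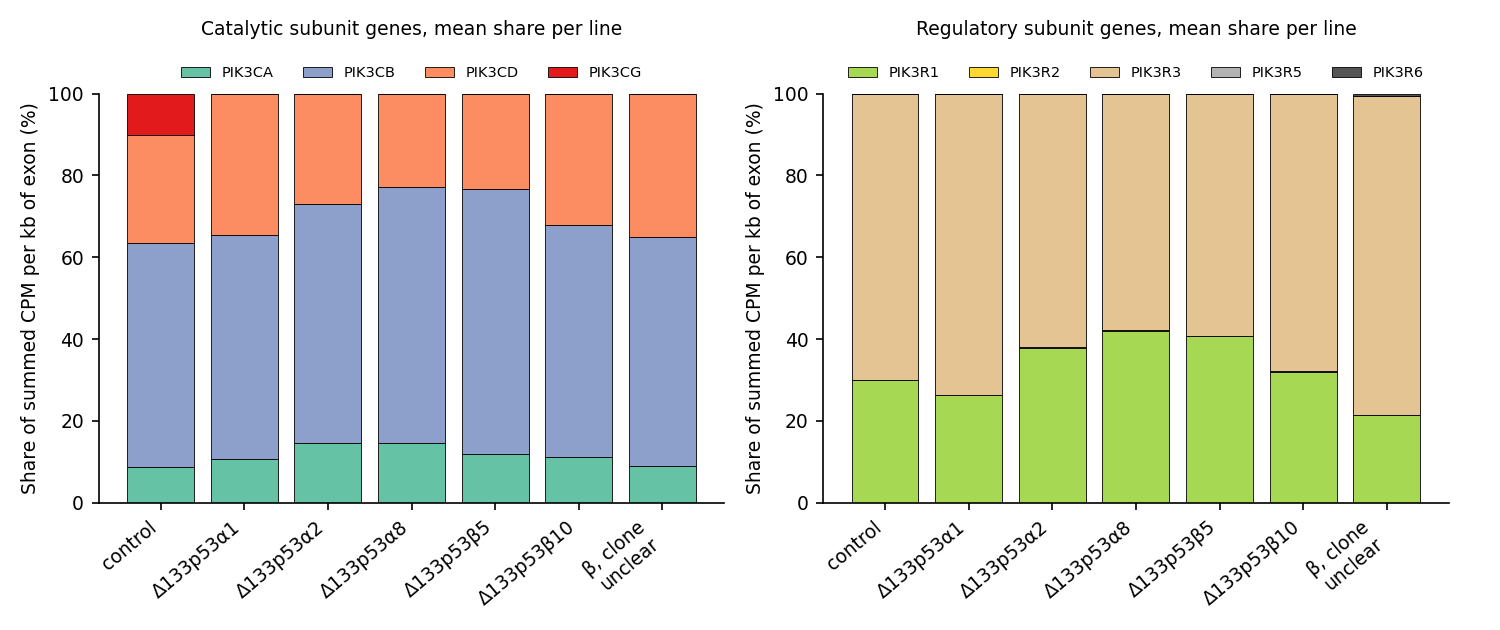
Mean share, in percent, of each gene in the summed CPM per kb of exon of the 4 catalytic genes (left) and of the 5 regulatory genes (right), by line; the last bar is the single library of unclear clone. PIK3CG takes up 10.1% in control and is not visible in the isoform lines, and PIK3CB and PIK3R3 take up the largest shares on this scale.

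The 5 other members that passed the filter (PIK3CA, PIK3CB, PIK3CD, PIK3R1 and PIK3R3) were compared with control in each line. The quasi-likelihood test of edgeR was run over 18295 genes, and a gene was called where its log2 fold change reached 1.5 in size and its p, adjusted by Benjamini-Hochberg, was under 0.05. Of the 25 tests of a member in a line, 0 were called, where the called share of all tested genes was 4.69% in Δ133p53β10, 4.21% in Δ133p53β5, 2.8% in Δ133p53α2, 2.6% in Δ133p53α1 and 2.5% in Δ133p53α8. DESeq2 and limma-voom called 0 as well. In 11 of the 25 tests the unadjusted p was under 0.05, and in 2 of them the edgeR adjusted p was under 0.05, both for PIK3R3. By the adjusted p alone, 7.99% of all tested genes passed in Δ133p53β5 and 9.82% in Δ133p53β10, and 4.88%, 5.31% and 4.48% in Δ133p53α1, Δ133p53α2 and Δ133p53α8, so the share of the members was near that of all genes. The share of all tested genes with an unadjusted p under 0.05 was not counted. The fitted log2 fold change was below 0 in 21 of 25, where the median of all tested genes lay between -0.05 and 0.03. PIK3CB, PIK3CD and PIK3R3 were below 0 in every line, and PIK3CA and PIK3R1 lay on either side. The 25 tests set 5 genes against the same 4 control libraries, so they are not independent.

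PIK3R3 (ENSG00000117461, chromosome 1 from 46040140 to 46133036, minus strand) encodes p55γ, a short member of the p85 family. It was lower than all control libraries in 20 of 20 isoform libraries. How many of all tested genes lay apart from control in this way was not counted. Control libraries held 22.0, 26.6, 21.3 and 19.97 CPM of PIK3R3 (mean 22.5 ± 2.87, SD, n = 4). Libraries of Δ133p53α1 held 17.1, 14.7, 14.9 and 15.0 CPM. Those of Δ133p53α2 held 12.8, 19.4, 11.0 and 16.3 CPM. Replicate 2 of Δ133p53α2 came nearest to control. Libraries of Δ133p53α8 held 15.3, 17.9, 14.8 and 15.5 CPM of PIK3R3. Libraries of Δ133p53β5 held 13.5, 11.9 and 11.4 CPM, and those of Δ133p53β10 held 15.1, 13.9, 11.6 and 18.1 CPM. The library of unclear clone held 15.6 CPM. Control did not overlap any isoform line, whereas neighbouring isoform lines overlapped each other, and Δ133p53β5 had the lowest mean. Its log2 fold change of PIK3R3 against control was -0.87 ± 0.200 (SE, edgeR adjusted p = 0.00868), and that of Δ133p53β10 was -0.61 ± 0.182 (edgeR adjusted p = 0.0359). Over the alternatives, the adjusted p ranged from 0.000106 to 0.303 in Δ133p53β5 and from 0.00611 to 0.453 in Δ133p53β10, and the log2 fold change remained below 0 in all 34 for either line. The threshold was missed for Δ133p53β10 without control replicate 2 (adjusted p = 0.111) or 3 (0.0572) or without Δ133p53β10 replicate 2 (0.0854) or 3 (0.109), and for Δ133p53β5 without its replicate 2 (0.0526) or 3 (0.0665). In the Δ133p53α lines the log2 fold change of PIK3R3 was -0.54 in Δ133p53α1 (edgeR adjusted p = 0.0855), -0.59 in Δ133p53α2 (0.0638) and -0.50 in Δ133p53α8 (0.149), and DESeq2 gave an adjusted p of 0.0245, 0.0116 and 0.0431. Of the exon bases of PIK3R3, 17.5% are shared on the same strand with a readthrough gene (P3R3URF-PIK3R3).

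PIK3CD (ENSG00000171608, chromosome 1 from 9629889 to 9729114, plus strand), the gene of p110δ, was lower than all control libraries in 19 of 20 isoform libraries. The share of all tested genes that reached such a number was not counted. Control libraries held 30.1, 35.3, 36.9 and 29.97 CPM of PIK3CD (mean 33.1 ± 3.55, SD, n = 4). Isoform libraries held between 17.7 and 34.8 CPM, with a median of 22.7 CPM. The exception was Δ133p53β10 replicate 3, at 34.8 CPM. The log2 fold changes of PIK3CD lay close together, at -0.63 in Δ133p53β5, -0.53 in Δ133p53α1, -0.52 in Δ133p53α8, -0.51 in Δ133p53α2 and -0.44 in Δ133p53β10. The edgeR adjusted p was 0.0677, 0.105, 0.147, 0.143 and 0.134, so none passed. Without Δ133p53β10 replicate 3 the value of Δ133p53β10 was -0.68 (edgeR adjusted p = 0.0214), that of Δ133p53β5 was -0.65 (0.0238) and that of Δ133p53α1 was -0.54 (0.0492). Without Δ133p53β10 replicate 4 that of Δ133p53β5 was -0.64 (0.0413). With DESeq2 the adjusted p was 0.0486 in Δ133p53α1 and 0.0191 in Δ133p53β5. PIK3CD and PIK3R3 moved little with the set of libraries: the positive set was higher in 1 of 6 groups for PIK3CD (ratio of means from 0.785 to 1.13) and in 5 of 6 for PIK3R3 (from 0.852 to 1.22).

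**Figure D3:**
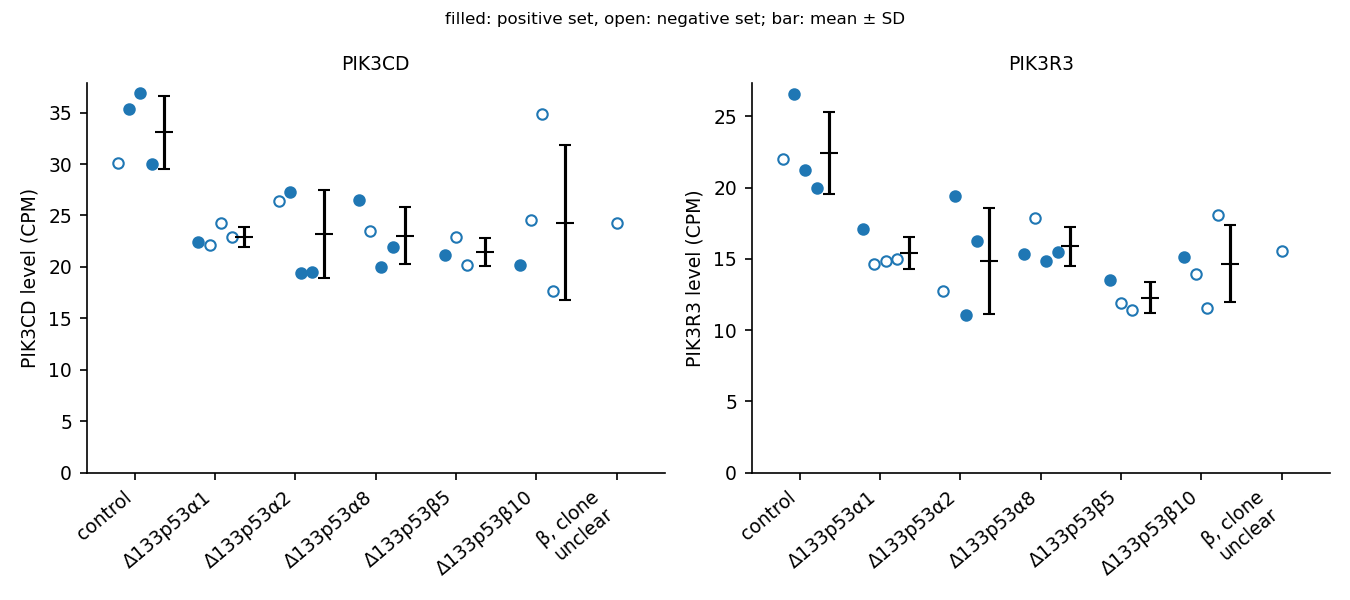
Level in CPM of PIK3CD (left) and PIK3R3 (right) in each library by line, with filled points for the positive set, open points for the negative set and bars for the mean ± SD. All isoform libraries lie below the 4 control libraries for PIK3R3, and 19 of 20 do for PIK3CD.

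PIK3CB, PIK3R1 and PIK3CA varied with the set of libraries. PIK3CB (ENSG00000051382, chromosome 3 from 138652698 to 138834928, minus strand) lay between 52.2 and 72.7 CPM in the 12 positive libraries and between 19.8 and 47.4 CPM in the 12 negative ones. PIK3R1 (ENSG00000145675, chromosome 5 from 68215740 to 68301821, plus strand), which encodes p85α, lay between 18.8 and 33.8 CPM in positive libraries and between 6.30 and 17.8 CPM in negative ones. The sets therefore did not overlap for either gene, whatever the line. PIK3CA (ENSG00000121879, chromosome 3 from 179148114 to 179240093, plus strand), the gene of p110α, was higher in the positive set in 6 of 6 groups, with a ratio of means from 1.25 in control to 2.75 in Δ133p53α2. The ratio ranged from 1.35 to 2.85 for PIK3CB and from 1.86 to 3.35 for PIK3R1, also in 6 of 6 groups. For PIK3CA, control replicate 2 was the exception among the positive libraries, at 12.2 CPM. Of the exon bases of PIK3CA, 19.8% lie opposite exons of KCNMB3 or a small RNA gene on the other strand, and the strand setting of the counting is not given.

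**Figure D4:**
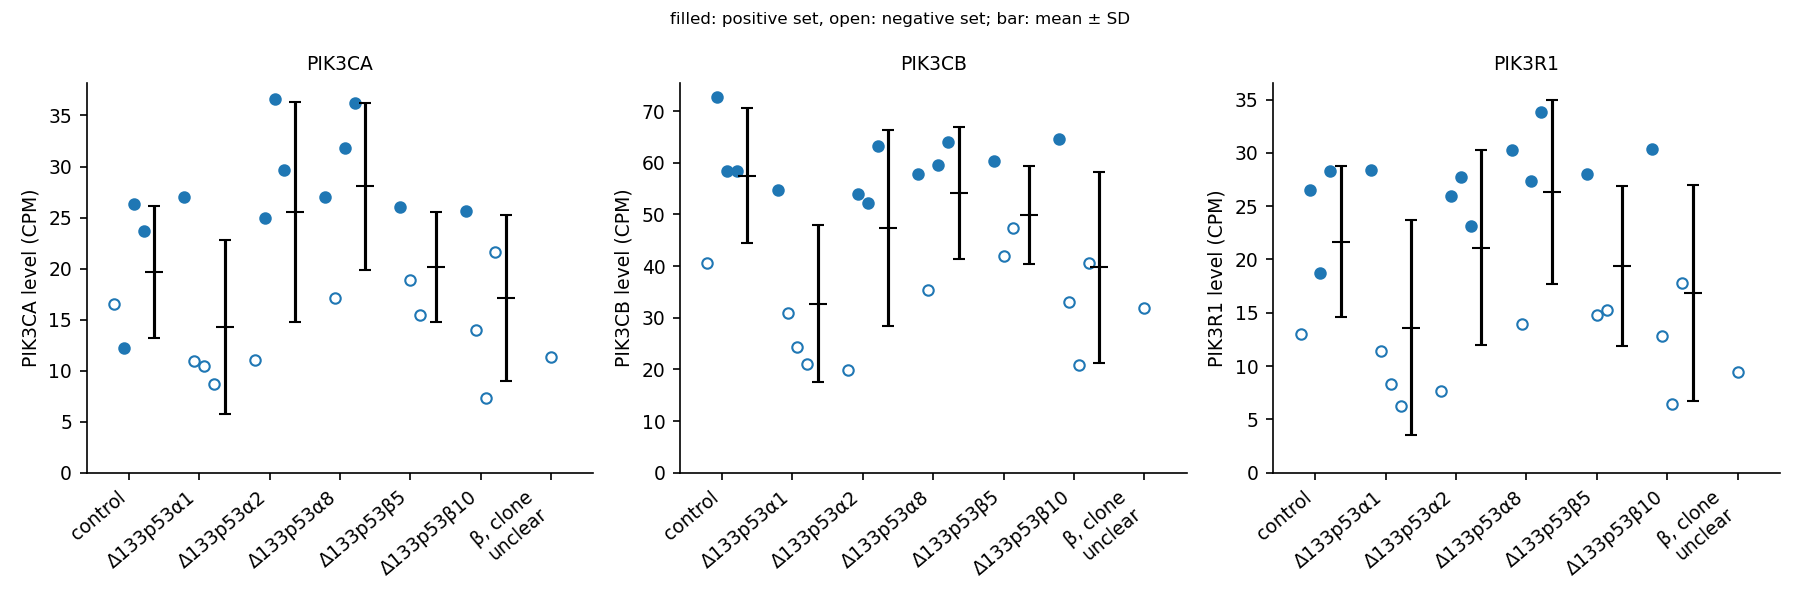
Level in CPM of PIK3CA, PIK3CB and PIK3R1 in each library by line, with filled points for the positive set, open points for the negative set and bars for the mean ± SD. Filled points lie above open points in every line for PIK3CB and PIK3R1, down to 52.2 against at most 47.4 CPM for PIK3CB.

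Against control, the log2 fold change of PIK3CB ranged from -0.81 in Δ133p53α1 (edgeR adjusted p = 0.168) to -0.09 in Δ133p53α8 (0.970). Δ133p53α1 held 1 positive library and control 3. With the set as a term in the fit, the value of PIK3CB in Δ133p53α1 was -0.42 (edgeR adjusted p = 0.236), and without Δ133p53α1 replicate 1, its positive library, it was -1.18 (adjusted p = 0.0331). That of PIK3CA ranged from -0.46 in Δ133p53α1 to 0.51 in Δ133p53α8, and that of PIK3R1 from -0.67 in Δ133p53α1 to 0.28 in Δ133p53α8, with an edgeR adjusted p of at least 0.359 for both genes in all 5 lines. The order of the lines for these 3 genes overlapped at each step.

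Between the isoforms, the mean of Δ133p53β5 and Δ133p53β10 was compared with the mean of the 3 Δ133p53α lines. Of the 5 members tested, 0 were called, where 1.4% of all tested genes were called, and 0 had an unadjusted p under 0.05 (edgeR). DESeq2 and limma-voom called 0 as well. The log2 fold change was -0.20 ± 0.124 for PIK3R3 (SE, edgeR adjusted p = 0.479) and -0.01 ± 0.128 for PIK3CD (0.978). It was -0.23 ± 0.282 for PIK3CA, 0.03 ± 0.243 for PIK3CB and -0.12 ± 0.330 for PIK3R1.

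The genes that work with class I PI3Ks were taken from a list of 77, of which 67 passed the filter. Calls of lower expression numbered 3 in Δ133p53β5, 2 in Δ133p53β10 and 1 in each Δ133p53α line, and 1 gene was called higher, in Δ133p53α8. The called share of the list was 1.49% in Δ133p53α1 and Δ133p53α2, 2.99% in Δ133p53α8 and Δ133p53β10, and 4.48% in Δ133p53β5, near that of all tested genes. The median log2 fold change of the list was -0.21 in Δ133p53β10, -0.19 in Δ133p53β5 and Δ133p53α1, -0.08 in Δ133p53α8 and -0.06 in Δ133p53α2. That of all tested genes lay between -0.05 and 0.03. Lines Δ133p53β10, Δ133p53β5 and Δ133p53α1 held 1 positive library each, whereas control, Δ133p53α2 and Δ133p53α8 held 3 of 4. The part of the sets in these medians was not tested. Between the isoforms 0 of 67 were called by edgeR, DESeq2 or limma-voom, and 5 had an unadjusted edgeR p under 0.05. The edgeR calls belonged to 4 genes, PREX1, PIK3C2B, GNG4 and FOXO1. DESeq2 also called GNG7 lower in 3 lines, with log2 fold changes from -2.52 to -2.18. GNG7 is named here after its values were seen.

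PREX1 (chromosome 20 from 48624252 to 48827999) encodes an exchange factor for Rac that is activated by PIP3 together with G protein βγ subunits, the subunits that also activate p110γ. It was called lower in 5 of 5 lines. Control libraries held 142, 232, 273 and 203 PREX1 reads, or 5.44, 9.86, 10.2 and 8.57 CPM. Isoform libraries held between 2 and 53 PREX1 reads, and the highest, Δ133p53α1 replicate 1, held 2.19 CPM. The groups did not overlap, and the share of all tested genes without overlap was not counted. The lowest isoform library was Δ133p53β10 replicate 4, with 2 PREX1 reads where the other libraries of that line held 40, 41 and 26. The log2 fold change of PREX1 was -3.14 in Δ133p53β5 (edgeR adjusted p = 0.000598), -2.80 in Δ133p53α8 (0.000561), -2.74 in Δ133p53β10 (0.000451), -2.42 in Δ133p53α2 (0.00161) and -2.15 in Δ133p53α1 (0.00550), with standard errors from 0.444 to 0.523. It kept an adjusted p under 0.05 in 33 of 34 alternatives in each line. The exception was the negative set alone, which holds 1 control library, where the value lay between -2.58 and -1.57.

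PIK3C2B (chromosome 1 from 204422628 to 204494805), a class II PI3K that makes other phosphoinositides, was called lower in both Δ133p53β lines. Control libraries held 4.83, 10.1, 9.35 and 6.88 CPM of PIK3C2B. Libraries of Δ133p53β5 held 1.71, 1.68 and 1.05 CPM. Those of Δ133p53β10 held 2.53, 1.79, 1.26 and 1.74 CPM. The library of unclear clone held 1.44 CPM, and Δ133p53α libraries held between 2.23 and 5.77 CPM. The Δ133p53β libraries thus lay below all control libraries, and Δ133p53α1 replicate 1 overlapped control. Such a separation was not counted over all tested genes. The log2 fold change of PIK3C2B was -2.39 ± 0.366 in Δ133p53β5 (SE, edgeR adjusted p = 0.000247) and -2.08 ± 0.323 in Δ133p53β10 (0.000226). It was -1.20 in Δ133p53α1 (edgeR adjusted p = 0.0278), -1.36 in Δ133p53α2 (0.0111) and -0.97 in Δ133p53α8 (0.0867), none of which reached 1.5 in size. Between the isoforms the difference was -1.06 ± 0.224 (SE, edgeR adjusted p = 0.00611), short of a call by its size, where 4.73% of all tested genes had an adjusted p under 0.05 and 1.4% were called. The Δ133p53β libraries reached 2.53 CPM and the Δ133p53α libraries began at 2.23 CPM, so they overlapped.

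The remaining calls were less steady. GNG4 (chromosome 1 from 235547685 to 235650754), a γ subunit of G proteins, fell by 1.79 on the log2 scale in Δ133p53β5 (edgeR adjusted p = 0.0309), from 8.31 CPM ± 3.49 in control (SD, n = 4) to 2.40 ± 0.592 (SD, n = 3). It missed the threshold without control replicate 1 (adjusted p = 0.0608) or 3 (0.0888) and without Δ133p53β5 replicate 1 (0.125), 2 (0.0638) or 3 (0.135). FOXO1 (chromosome 13 from 40555667 to 40666641), a transcription factor that AKT keeps out of the nucleus, rose by 1.56 on the log2 scale in Δ133p53α8 (edgeR adjusted p = 0.0385), from 1.42 CPM ± 0.735 to 4.202 ± 0.929 (SD, n = 4 each). In Δ133p53β10 its log2 fold change was 1.46 (edgeR adjusted p = 0.0343), short of a call by its size, and in the other lines it lay between 1.02 and 1.39. Leaving out 1 library took the adjusted p of FOXO1 in Δ133p53α8 past 0.05 in 10 of 23 cases, to at most 0.129. AKT1 was at 0.79 in Δ133p53α1 (edgeR adjusted p = 0.0119) and 0.64 in Δ133p53α2 (0.0378), and between 0.33 and 0.50 in the other lines. Leaving out 1 library took the adjusted p of AKT1 past 0.05 in 10 of 23 cases in Δ133p53α2, to at most 0.147, and in 1 of 23 in Δ133p53α1. AKT2 lay between -0.16 and 0.47 in the 5 lines, with an edgeR adjusted p of at least 0.177. PIK3IP1, which encodes an inhibitor of class I PI3Ks and is named here after its values were seen, was at -1.36, -0.97, -1.27, -1.35 and -1.39 in the 5 lines and was not called (edgeR adjusted p from 0.0653 to 0.308).

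The number of calls among the pathway genes depended on the sets and on 1 library. Over the 5 lines there were 9 calls of a gene in a line. With the library set as a term there were 19, of which PREX1 made up 5, FOXO1, GNG7 and PIK3IP1 3 each, PIK3C2B and GNG4 2 each and SGK1 1. Without Δ133p53α1 replicate 1 there were 18. Calls over all genes moved too, from 475 to 1607 in Δ133p53α1 without that library, and from 771 to 1149 in Δ133p53β5 with the set as a term. PREX1 remained called in 5 lines in either case, and PIK3C2B in 2 and 3.

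**Figure D5:**
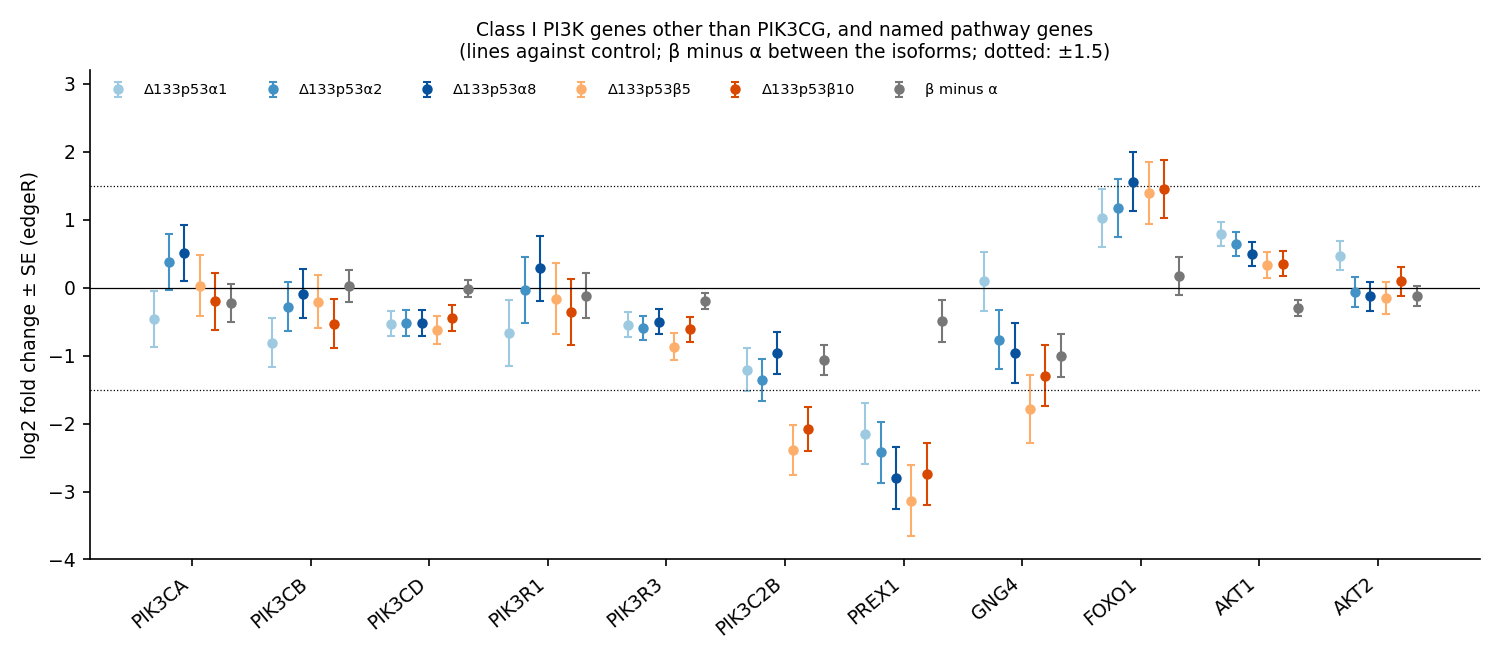
Fitted log2 fold change ± SE (edgeR) of the 5 tested members other than PIK3CG and of 6 named pathway genes, per line against control and also for the mean of the Δ133p53β lines minus the mean of the Δ133p53α lines; dotted lines mark 1.5 in size. PREX1 lies below -1.5 in all 5 lines and PIK3C2B in the 2 Δ133p53β lines, and all members lie within the dotted lines.

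Genes around PIK3CG on chromosome 7 were examined in the same way. Of 70 annotated genes whose start lies within 2 Mb, 66 were in the table and 36 were tested. Of these, edgeR, DESeq2 and limma-voom each called 0 in Δ133p53α1, Δ133p53α2, Δ133p53α8 and Δ133p53β5, where 8, 4, 3 and 5 genes had an unadjusted edgeR p under 0.05. In Δ133p53β10, where 13 genes had an unadjusted edgeR p under 0.05, edgeR and DESeq2 each called 1 and limma-voom 0. The gene called by edgeR was the pseudogene RPL7P32, with 0 to 6 reads in control (log2 fold change 2.17, edgeR adjusted p = 0.0351). Of all tested genes, edgeR called between 2.5% (Δ133p53α8) and 4.69% (Δ133p53β10) in a line, so 0 or 1 call of 36 was near that share. The median log2 fold change of the 36 was -0.36, -0.28, -0.16, -0.13 and -0.35 in the 5 lines. The nearest tested neighbours were not called. LINC02577, a long non-coding RNA with its start at -90.3 kb from that of PIK3CG, had a log2 fold change above 0 in all 5 lines, from 0.76 in Δ133p53α2 (edgeR adjusted p = 0.0570) to 1.41 in Δ133p53β5 (0.000795), without reaching 1.5. PRKAR2B, a regulatory subunit of protein kinase A whose start lies 179 kb after that of PIK3CG, was between -1.02 in Δ133p53α1 (edgeR adjusted p = 0.123) and -0.18 in Δ133p53α8 (0.926). Around PIK3R5 and PIK3R6 on chromosome 17, 92 genes were tested, of which between 1 (Δ133p53α8) and 4 (Δ133p53β5) were called lower and between 2 and 4 (Δ133p53β10) higher in a line.

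The genes most like PIK3CG were ranked by Pearson's r of log2 CPM (prior count 2) among 15687 tested genes with a symbol, as a description over the 23 fitted libraries, in which the 4 control libraries stand apart. They were the pseudogene LDHAL6FP (r = 0.990), NETO1 (0.989), ENPP4 (0.986), ADPRH (0.985) and the transcription factor gene SOX9 (0.985). All 5 were read in every control library and had at most 5 reads in an isoform library. PIK3CG shared this pattern with genes on chromosomes 6, 18, 3 and 17. The most opposed were CTPS2 (r = -0.974), NR0B1 (-0.973) and SPECC1 (-0.963), of which CTPS2 and NR0B1 reached no more than 3 reads in any control library and held 73 or more in each isoform library. With Spearman's rho in place of r, 1 of the 5 genes most like PIK3CG was shared, and with a prior count of 0.5, 3 of 5 were.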

How the data were processed

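Strand-specific poly(A) libraries of H1299 lines were sequenced, and the authors trimmed the reads, used HISAT2 for alignment to GRCh38, and summarized exon reads by gene with featureCounts and an Ensembl annotation. The deposited values are read counts per gene, not normalized. Settings for strand and shared reads are not given in the sources used here, and reads carry no molecular identifiers. The members and gene lists were chosen with earlier results of these data known. The introduced gene and some pathway genes are not reported here.

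Counts were fitted in R 4.3.3 with edgeR 4.0.16 (TMM, filterByExpr by group, quasi-likelihood test, 6 groups, 23 libraries, 17 residual degrees of freedom), with Benjamini-Hochberg adjustment over 18295 genes. The call rule is the study's. The 1 row without a gene name (0 reads) was left out. Libraries of a line differed beyond sampling noise in all 33 pairs (chi-square over its degrees of freedom 11.4 or more). Alternatives were DESeq2 1.42.0, limma 3.58.1 (voom), RLE size factors, other filters, the unclear library in either Δ133p53β line, the replicate number as a block, the set of libraries as a term or alone, no fold change threshold, leaving out each library, and transcript length. Gene positions and exon lengths are from GENCODE 44, and starting regions from RefSeq. Named genes were the members, pathway genes called in any comparison, AKT1 and AKT2, the 5 genes most like and 3 most opposed to PIK3CG, and called or nearest neighbours of PIK3CG. The procedure was tested on simulated data with known fold changes.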

Additional observations from a re-analysis of the deposited data

Results flagged for a closer look

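Samples far from the others of their line were looked for in 56 combinations of a gene and a line with 4 libraries, of which about 1 in 20 is expected to stand out by chance, and 4 did. Of these, 3 were in the same library, Δ133p53α1 replicate 1, the only library of that line in the positive set. It held 27.0 CPM of PIK3CA where the other libraries of the line held between 8.68 and 11.0, 17.1 CPM of PIK3R3 where they held between 14.7 and 15.0, and 5.77 CPM of PIK3C2B where they held between 2.23 and 2.74. GNG4 was at 8.53 CPM in Δ133p53α8 replicate 2, the only library of that line in the negative set, and between 2.78 and 2.93 CPM in the others. The part of the set of libraries in these values was not tested.

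Between the isoforms PIK3C2B passed the adjusted p but was not called, with a log2 fold change of -1.06 ± 0.224 for the mean of the Δ133p53β lines against the mean of the Δ133p53α lines (SE, edgeR adjusted p = 0.00611). Over the alternatives it ranged from -1.16 to -0.85, with an adjusted p under 0.05 in 32 of 34. The exceptions were the positive set alone (adjusted p = 0.147) and the negative set alone (0.111). It compares 2 clones with 3, and the libraries of the isoforms overlapped.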

How the results depend on the processing

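Of the class I PI3K genes other than PIK3CG, which was not tested, 0 were called against control or between the isoforms under every alternative that kept the fold change threshold, leaving out 1 library included, and 2 against control without that threshold (PIK3R3 in both Δ133p53β lines). The 9 calls among pathway genes against control became 19 with the library set as a term, 0 in the negative set alone, which holds 1 control library, and 18 without the fold change threshold, and ranged from 7 to 18 when 1 library was left out. They were 12 with DESeq2, 10 with limma-voom and 7 with the replicate number as a block. Over 55 pairs of libraries with the same number in different lines, the correlation of their deviations from the line means ranged from -0.88 to 0.889. Its median was 0.008, against -0.019 over pairs with different numbers. Libraries of each number fell in both sets, so these correlations cannot tell whether a number marks a shared batch. With the block, GNG4 in Δ133p53β5 and FOXO1 in Δ133p53α8 were no longer called. With the longest transcript as gene length, the control shares were 48.2% for PIK3CB, 32.6% for PIK3CD and 7.84% for PIK3CG.

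The following log2 fold changes had the other direction than in the report, all with an adjusted p over 0.05, and the cause was not tested. In the positive set alone, PIK3CA was at 0.36 in Δ133p53α1, 0.28 in Δ133p53β10, PIK3CB was at 0.031 in Δ133p53β10, PIK3R1 was at 0.21 in Δ133p53α1, 0.093 in Δ133p53α2, 0.21 in Δ133p53β5, 0.30 in Δ133p53β10, 0.043 between the isoforms, GNG4 was at -0.41 in Δ133p53α1 and AKT2 was at -0.37 in Δ133p53β10. In the negative set alone, PIK3CA was at -0.60 in Δ133p53α2, 0.36 between the isoforms, PIK3CB was at 0.16 in Δ133p53β5, PIK3R1 was at 0.23 in Δ133p53β5, 0.51 between the isoforms, GNG4 was at -0.19 in Δ133p53α1 and AKT2 was at 0.27 in Δ133p53α2, 0.13 in Δ133p53α8. With the library of unclear clone in Δ133p53β5, PIK3CA was at -0.14 in Δ133p53β5, PIK3CB was at -0.044 between the isoforms, PIK3CD was at 0.0086 between the isoforms and AKT2 was at 0.023 in Δ133p53β5. With the library set as a term, PIK3CA was at 0.19 in Δ133p53β10, 0.093 between the isoforms, PIK3CB was at 0.20 in Δ133p53β5, PIK3R1 was at 0.36 in Δ133p53β5, 0.20 in Δ133p53β10, 0.30 between the isoforms, GNG4 was at -0.36 in Δ133p53α1 and AKT2 was at -0.15 in Δ133p53β10. With the library of unclear clone in Δ133p53β10, PIK3CB was at -0.0040 between the isoforms. With the replicate number as a block, PIK3R1 was at 0.017 in Δ133p53α2 and GNG4 was at -0.025 in Δ133p53α1. Leaving out 1 library at a time moved the log2 fold change across 0, with ranges of -0.29 to 0.029 for AKT2 in Δ133p53α2, -0.014 to 0.23 for AKT2 in Δ133p53β10, -0.31 to 0.27 for GNG4 in Δ133p53α1, -0.46 to 0.033 for PIK3CA in Δ133p53β10, -0.19 to 0.20 for PIK3CA in Δ133p53β5, -0.24 to 0.053 for PIK3CB in Δ133p53α8, -0.14 to 0.15 for PIK3CB between the isoforms, -0.13 to 0.044 for PIK3CD between the isoforms, -0.23 to 0.23 for PIK3R1 in Δ133p53α2 and -0.34 to 0.097 for PIK3R1 between the isoforms. Genes near 0 reads, such as PIK3R5, PIK3R6 and PIK3R2, could not be compared at this depth.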
